A study of Drosophila melanogaster with 34 samples.

Results

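The Antennapedia complex is the Hox gene cluster of chromosome arm 3R that holds lab, pb, Dfd, Scr and Antp, and the peaks described here are those whose summit lay between positions 2480000 and 2830000 of 3R in the dm3 assembly, a window of 350 kb. Across 5 peak lists the window held 177 of the 47852 peaks called on the chromosome arms. Of these, 46 of 10139 were Crol peaks of wild-type (WT) larvae, 37 of 9883 were Crol peaks of larvae with a deleted crol gene (crol-KO), 39 of 8938 were Cg peaks of WT larvae, 34 of 9299 were Cg peaks of crol-KO larvae, and 21 of 9593 were Crol peaks of S2 cells. Merged by overlap, they formed 52 sites, numbered here from the lab end (site 1) to the Antp end (site 52).

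Crol (Crooked legs) and Cg (Combgap) are zinc finger proteins that bind DNA, and chromatin immunoprecipitation with sequencing (ChIP-seq) maps where they sit on chromatin. The larval chromatin came from brains and imaginal discs of the 3rd instar, either WT or crol-KO, the latter made by replacing crol sequence through CRISPR-Cas9 cutting and homologous recombination. S2 cells, a cultured line of embryonic origin, are labelled wild-type; their tissue label names larval discs and brains, and their titles were followed. Crol was precipitated in all cases with CrolN, an antibody against the N-terminal part of Crol, and Cg with an antibody against Cg. Each larval sample pooled 10 animals and mixed many cell types, and the study notes that Crol provided by the mother can persist in crol-KO larvae, so crol-KO stands for lowered rather than absent Crol. The Crol antibody still gave 9883 peaks in crol-KO larvae, and the source of its peaks was not tested.

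The 5 genes specify segment identity along the body axis. The product of lab acts in the head, that of pb in the adult mouthparts, that of Dfd in the maxillary and mandibular segments, that of Scr in the labial segment and the prothorax, and that of Antp in the thorax, where it sets leg identity. Polycomb group proteins keep such genes silent outside their domains of expression, and they are brought to DNA at Polycomb response elements by DNA-binding proteins, of which Cg is one. In the current RefSeq annotation the genes lie along 3R in the order lab, pb, Dfd, Scr, Antp, and only this order was used, since the peak coordinates are those of an older assembly. Single peaks were therefore not assigned to a gene, and ends of the complex are called the lab end and the Antp end. Polycomb group proteins and histone marks were not analysed here.

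Each list had been called on the pooled reads of 2 replicates, so each group gave 1 list. No difference between lists given here therefore has a replicate check or a p-value. The paper reports its own test of differential Crol and Cg binding between WT and crol-KO, and that test was not used here. The 95% intervals given with shares are Clopper-Pearson (exact). They account for counting error alone and take neighbouring peaks as independent. Depth, recovered from the peak values, was 4.24 M reads for WT Crol, 4.89 for crol-KO Crol, 3.42 for WT Cg, 3.57 for crol-KO Cg and 5.77 for S2 Crol. Fold enrichment, the ratio of reads at the summit to the local background, depends on depth and background, so lists were compared by rank, where rank 1 is the highest fold enrichment of a list. A rank given in percent is the rank divided by the number of peaks in the list. Peak numbers within the window ran without a break in the WT Crol list, while each of the other 4 lists skipped 1 number between positions 2632823 and 2674218. The peaks behind those numbers were not analysed here, and an absence at such a place is called undetermined, which touched 8 sites.

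By number of peaks, the complex was rich in larval Crol and Cg peaks and not in S2 Crol peaks. Among 79 windows of 350 kb along 3R, the 46 WT Crol peaks were the 5th highest count, a count that 2 other windows also had, against a median of 27 and a range of 7 to 52 in the other windows. The 39 WT Cg peaks were the 8th highest count against a median of 26. The crol-KO lists stood lower, with 37 Crol peaks as the 18th highest count and 34 Cg peaks as the 20th. In S2 cells the 21 peaks were the 55th highest count, below the median of 26 in the other windows. By length covered by peaks, the window stood lower in every list. It was 22nd for WT Crol, 33rd for crol-KO Crol, 23rd for WT Cg, 34th for crol-KO Cg and 67th for S2 Crol. Its 52 sites were the 23rd highest count.

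**Figure D1:**
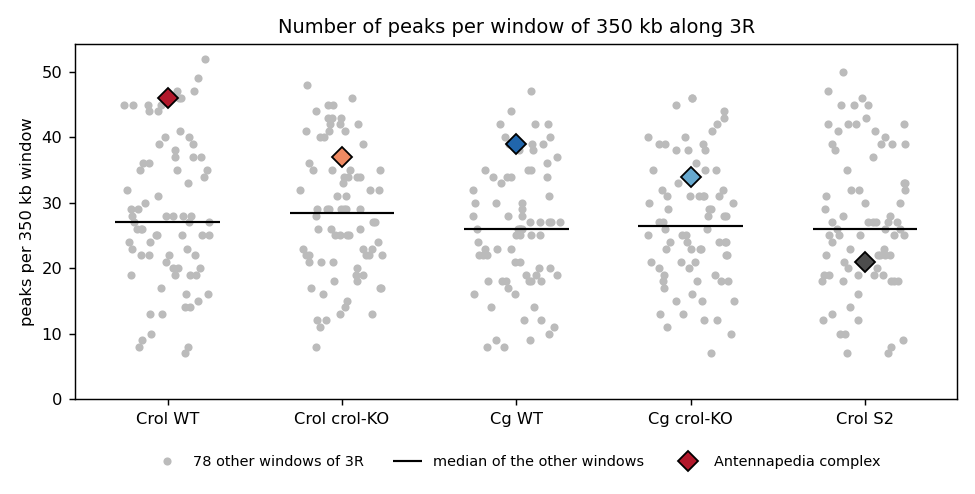
Peaks per 350 kb window of 3R, 1 column per list; grey points are the 78 other windows, the black line is their median and the diamond is the Antennapedia complex. The diamond lies above the median line for the 4 larval lists (46, 37, 39 and 34 peaks) and below it for S2 cells (21 peaks).

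In WT larvae the complex stood out by the number of its peaks and less by their strength. Each of the 4 larval lists had 3 to 5 peaks of the complex among its strongest 10%, counts that other windows also had. The highest fold enrichment of WT Crol in the window, 6.75, was only the 57th highest among the 79 windows, while that of WT Cg, 8.92, was the 19th. WT Crol peaks in the complex had a median rank of 51.9% of the list, and 4 of the 46 were among the strongest 10%. That count was the 9th highest, which 13 other windows also had, and the 3 such WT Cg peaks were the 19th highest, which 17 others had. In crol-KO larvae 5 Crol peaks were among the strongest 10%, the 5th highest such count, which 6 other windows also had, and 4 Cg peaks were, the 12th highest, which 12 others had. The highest fold enrichment in these lists was the 44th highest for Crol and the 48th for Cg. S2 Crol peaks of the complex were fewer and ranked higher in their list, with a median rank of 31.5% and 5 of 21 among the strongest 10%. That count was the 10th highest, while their highest fold enrichment, 12.8, was only the 49th highest. The bithorax complex was taken from general knowledge of dm3 as the window from 12480000 to 12830000 of 3R. It differed for WT Crol, with 37 peaks at a median rank of 29.5% and 9 of them among the strongest 10%. For S2 Crol it was alike, with 23 peaks at a median rank of 23.2% and 7 among the strongest 10%. The same window held 39 WT Cg, 32 crol-KO Crol and 31 crol-KO Cg peaks.

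**Figure D2:**
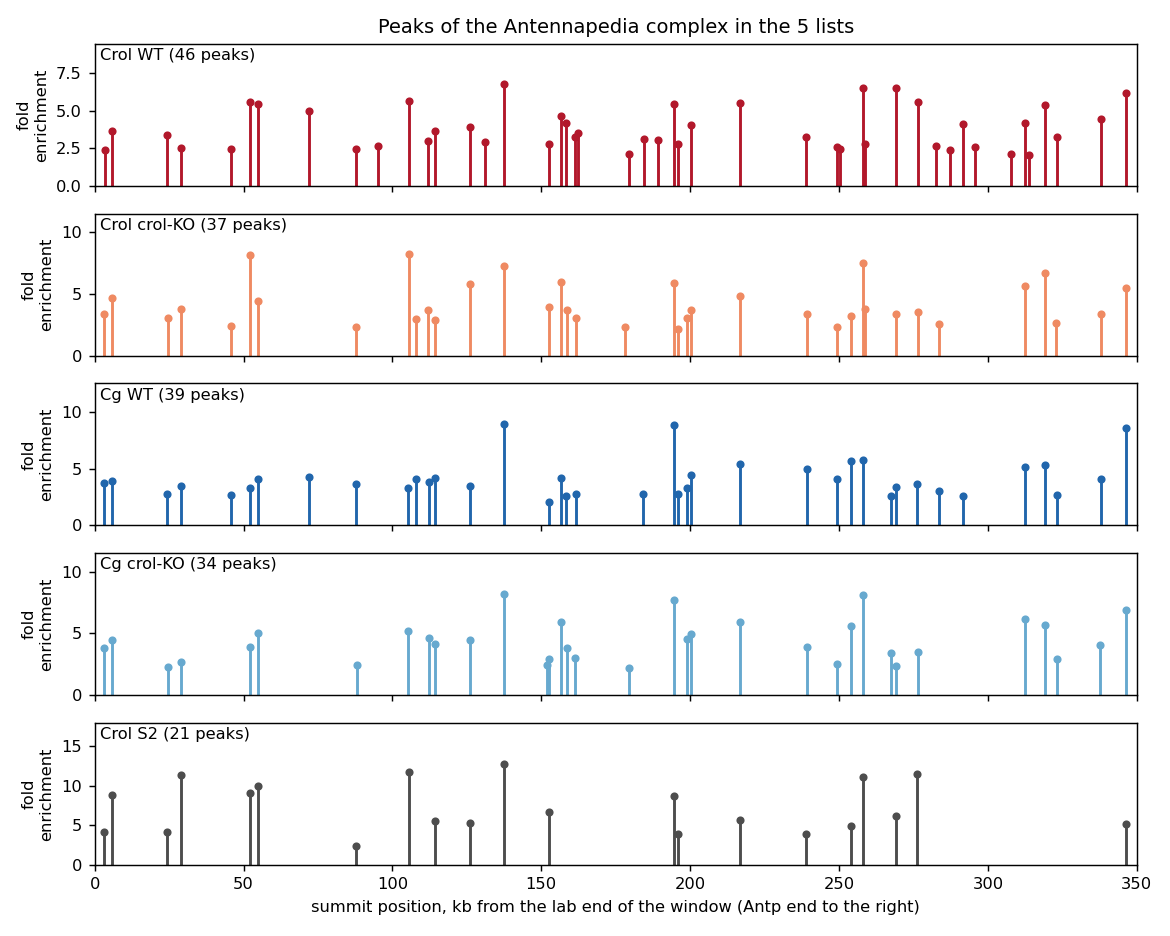
Fold enrichment of every peak in the window, 1 panel per list, at the distance of its summit from the lab end in kb; the vertical scale differs between panels because fold enrichment is not comparable between lists. The stems of the 4 larval lists run from the lab end to the Antp end, with gaps of up to 35.6 kb. The S2 panel has no stem over 69.5 kb, between site 40 and site 52.

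Most sites were shared between lists. In all 5 lists 19 of the 52 sites had a peak (36.5%, compared with 32.7% of sites on the rest of 3R), and 10 more had a peak in each of the 4 larval lists and not in S2 cells. At 3 of these 10 the absence from S2 cells is undetermined. Only 12 sites had a peak in 1 list alone (23.1%, compared with 31.4% on the rest of 3R and 32.6% on all arms), of which 10 were WT Crol peaks, 1 was a crol-KO Crol peak (site 24) and 1 a crol-KO Cg peak (site 18). At sites 23, 24 and 27 among them, the absence from at least 1 other list is undetermined. No site was particular to S2 cells among the peaks analysed, which leave out the S2 peak behind the skipped number. The share of sites with all 4 larval lists was 55.8% in the Antennapedia complex, 56.2% in the bithorax complex and 45.6% on the rest of 3R.

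**Figure D3:**
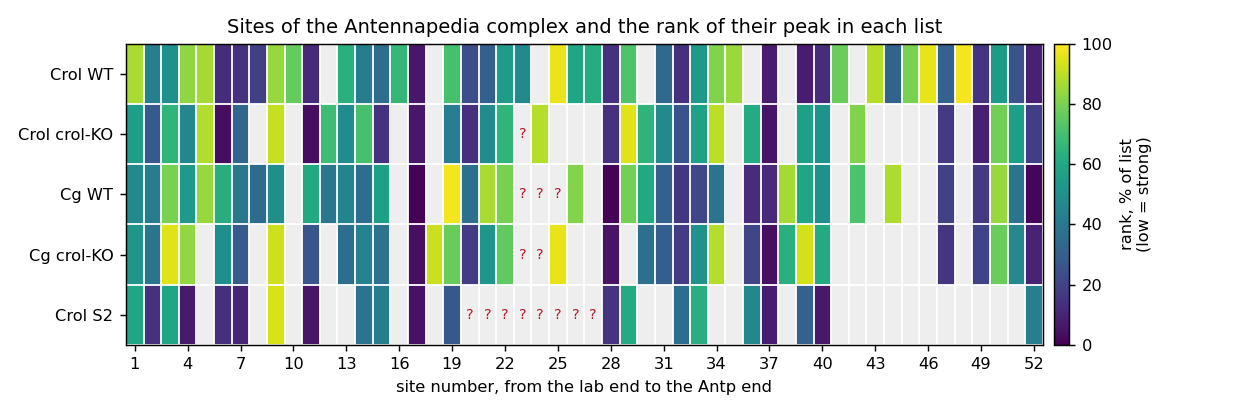
The 52 sites, from the lab end (left) to the Antp end (right), by list; colour gives the rank of the strongest peak in percent of its list, dark being strong, grey is no peak and a red question mark is undetermined. The 19 sites filled in all 5 rows lie along the whole window, and the stretch from site 41 to site 48 is filled mainly in the WT Crol row.

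The strongest site of the complex was site 17, at 3R 2617043 to 2617713. It was the strongest peak of the window in WT Crol (fold enrichment 6.75, rank 643), in WT Cg (8.92, rank 78), in crol-KO Cg (8.20, rank 364) and in S2 Crol (12.8, rank 465), and it was rank 629 in crol-KO Crol. Its summits in the 5 lists lay within 101 bp of each other. Site 37, at 2737755 to 2739138, was the other site among the 5 strongest of every list, with ranks 761 and 542 for Crol and 1054 and 398 for Cg in WT and crol-KO, and 730 in S2 cells. It was also the only site where Crol formed a pair of peaks, with summits at 2738055 and 2738781 in WT and at 2738053 and 2738866 in crol-KO, whereas Cg and S2 Crol gave 1 broad peak each.

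The 3 strongest WT Cg sites of the complex held Crol peaks as well. Site 28, at 2674055 to 2674863, was rank 81 of the WT Cg list and rank 508 of the crol-KO Cg list, and rank 1435 and 1407 in the Crol lists. Site 52, at 2826106 to 2827125, the last one at the Antp end, was rank 107 and 872 for Cg and rank 936 and 1822 for Crol, so that it was also among the 5 strongest WT Crol peaks of the window. With site 17 these were the 3 WT Cg peaks of the complex among the strongest 10% of the list, and all 3 were in the strongest 1.2% of it. Site 36 was also among the 5 strongest WT Cg peaks of the window, at rank 1137. It had no WT Crol peak, and its crol-KO Crol peak was rank 6070.

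Other sites were strong for Crol and ordinary for Cg. Site 11, at 2585133 to 2585700, had Crol ranks of 1257 in WT, 354 in crol-KO and 599 in S2 cells, and Cg ranks of 5417 in WT and 2494 in crol-KO. Site 6, at 2531987 to 2532530, had Crol ranks of 1307, 356 and 1292 in the same order, and Cg ranks of 5558 and 4648. Both were thus among the 5 strongest crol-KO Crol peaks of the window, at 3.58% and 3.60% of that list. Site 39, at 2748787 to 2749404, was rank 775 for WT Crol and rank 5288 for WT Cg.

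Near the lab end the lists coincided. All 4 sites of the 35 kb next to that end, sites 1 to 4, were in all 5 lists. Site 1 (2482865 to 2483838) ranked between 47.8% and 87.2% of the lists. Its summits were spread over 459 bp, more than at any other site in all 5 lists. Site 2 (2485522 to 2486133) ranked 43.2% in WT Crol and 14.4% in S2 Crol, and site 3 (2504171 to 2504701) was in the weaker 50% of every list, from 50.2% in WT Crol to 94.9% in crol-KO Cg. Site 4 (2508785 to 2509809) differed most between the larvae and the cell line, at 83.5% of the WT Crol list and 7.05% of the S2 Crol list, where it was among the 5 strongest of the window.

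The other sites found in all 5 lists lay between site 7 and site 40. On the lab side, site 7 (2534488 to 2535013) ranked 14.4% in WT Crol and 10.4% in S2 Crol, and site 9 (2567254 to 2568229) was weak in every list but WT Cg, where it ranked 49.5%. Site 14 (2593952 to 2594405) ranked from 36.3% to 70.7% of the lists. Site 15 (2605715 to 2606225) ranked from 14.6% in crol-KO Crol to 56.7% in WT Cg. Site 19 (2632298 to 2632823), the site in all 5 lists whose summits agreed best, within 13 bp, ranked 71.0% in WT Crol, 98.3% in WT Cg and 27.5% in S2 Crol. On the Antp side, site 32 (2696492 to 2696987) ranked between 13.7% and 36.1% in all lists, and site 33 (2718678 to 2719723) between 21.4% and 62.9%. Site 40 (2756034 to 2756647) ranked 13.0% in WT Crol and 6.86% in S2 Crol. Over the 19 sites the median rank was 14.4% in WT Crol, 33.0% in crol-KO Crol, 47.8% in WT Cg, 44.5% in crol-KO Cg and 27.5% in S2 Crol. They were mixed in strength, with 13 of the 19 in the stronger 50% of the WT Crol list and 11 of the 19 in that of the WT Cg list.

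Crol and Cg peaks coincided in the complex at shares close to those of all arms. Of the WT Crol peaks, 35 of 46 overlapped a WT Cg peak (76.1%, 61.2 to 87.4), compared with 75.8% on all arms. Of the WT Cg peaks, 34 of 39 overlapped a WT Crol peak (87.2%, 72.6 to 95.7), compared with 87.1%. In crol-KO larvae 32 of 37 Crol peaks had a Cg peak (86.5%, 71.2 to 95.5; all arms 85%), and 31 of 34 Cg peaks had a Crol peak (91.2%, 76.3 to 98.1; all arms 90.8%). The summits were close. The median distance between overlapping Crol and Cg summits was 39 bp in WT and 19.5 bp in crol-KO, compared with 41 bp and 37 bp on the rest of 3R. The 10 Crol peaks seen in WT only and in no other list account for 10 of the 11 WT Crol peaks without WT Cg, site 25 being the other. At sites 23 and 25 the absence of WT Cg is undetermined.

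A smaller share of WT Crol peaks was found again in crol-KO larvae than on the rest of 3R. Of the 46 peaks, 32 overlapped a crol-KO Crol peak (69.6%, 54.2 to 82.3), compared with 83.4% on the rest of 3R, 81.4% on all arms and 86.5% in the bithorax complex (32 of 37, 71.2 to 95.5). The share was the 5th lowest among the 75 windows of 3R with at least 10 WT Crol peaks. The number of WT Crol peaks missing from crol-KO, 14, was the 2nd highest count among the 79 windows, in which the others had a median of 4 and a maximum of 19. The next highest window had 13, and the 14 include site 23, whose absence from crol-KO is undetermined. Starting from crol-KO, 32 of its 37 Crol peaks had a WT Crol partner (86.5%, 71.2 to 95.5), compared with 82.3% on all arms.

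Between genotypes, Cg peaks were shared as follows. Of the WT Cg peaks, 32 of 39 overlapped a crol-KO Cg peak (82.1%, 66.5 to 92.5), compared with 89.4% on all arms. Of the crol-KO Cg peaks, 32 of 34 overlapped a WT Cg peak (94.1%, 80.3 to 99.3), compared with 84.4%. Among windows with at least 10 peaks, the former share was the 11th lowest of 75 and the latter the 9th highest of 78. For Crol and for Cg, in both directions, the interval held the share of all arms. The bithorax complex gave 31 of 39 (79.5%) and 31 of 31 (100%).

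**Figure D4:**
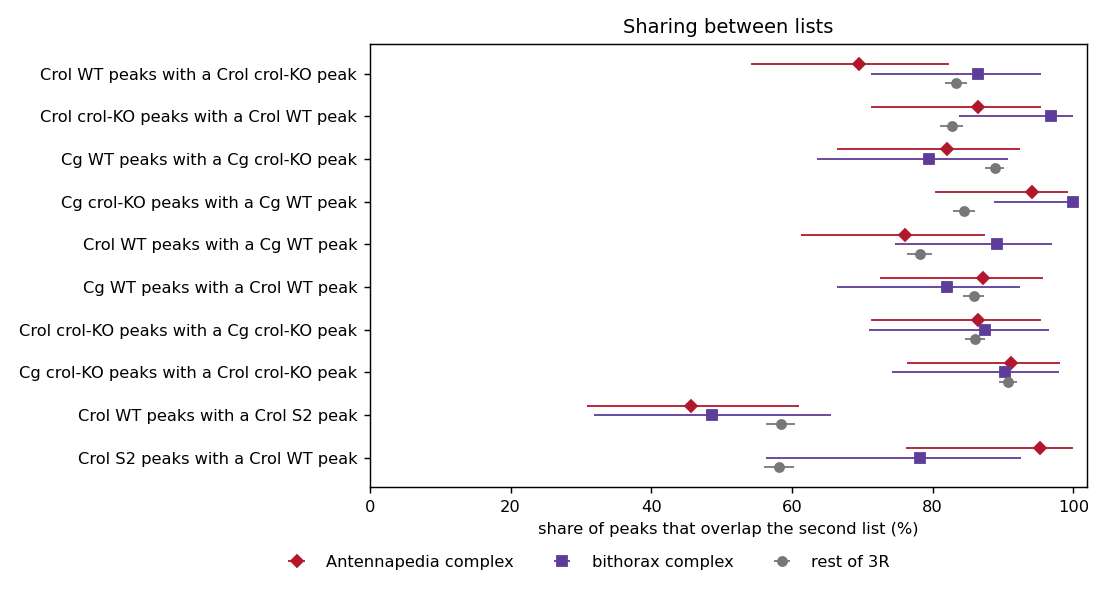
Share of the peaks of 1 list that overlapped the second list, in percent, with 95% intervals (Clopper-Pearson), for the Antennapedia complex, the bithorax complex and the rest of 3R. WT Crol peaks found in crol-KO (69.6% against 83.4% on the rest of 3R) and S2 Crol peaks found in WT (95.2% against 58.1%) are the rows where the interval of the Antennapedia complex leaves out the value of the rest of 3R. The former row counts site 23, undetermined in crol-KO, as without a partner, and gives 71.1% when that peak is left out. Its interval holds the 81.4% of all arms.

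WT Crol peaks that lacked a crol-KO partner were the weaker ones. Their fold enrichment ran from 2.02 to 4.98 with a median of 2.66, and that of the 32 with a partner from 2.41 to 6.75 with a median of 3.98. Reads at the summit had a median of 36.5 and 77 in these groups. On all arms the same split was present, with a median fold enrichment of 2.71 without and 3.62 with a partner, and 44 and 68 reads. Of the 24 WT Crol peaks in the weaker 50% of the list, 13 had a partner (54.2%, 32.8 to 74.4), compared with 73.5% on the rest of 3R, and of the 22 in the stronger 50%, 19 had one (86.4%, 65.1 to 97.1), compared with 93.4%. The share was thus lower than on the rest of 3R among weak and among strong peaks, although both intervals hold the value of the rest of 3R. The 3 strong peaks without a partner include site 23, which is undetermined in crol-KO. Per M reads of depth, the 14 peaks had between 7.07 and 19.3 reads at the summit, and the weakest crol-KO Crol peak of the complex had 7.97, a level that 3 of the 14 did not reach.

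The same 14 peaks were mostly without Cg. Of the 32 WT Crol peaks found again in crol-KO, all 32 overlapped a WT Cg peak (100%, 89.1 to 100), 30 a crol-KO Cg peak and 21 an S2 Crol peak. Of the 14 not found again, 3 overlapped a WT Cg peak (21.4%, 4.66 to 50.8), 1 a crol-KO Cg peak and 0 an S2 Crol peak (0 to 23.2%). These counts include absences beside skipped numbers. In S2 Crol the absence is undetermined at sites 23, 25, 26 and 27. In WT Cg it is undetermined at sites 23 and 25, and in crol-KO Cg at site 23. On all arms the corresponding shares with WT Cg were 87.7% and 23.7%, and those with S2 Crol were 66.3% and 23.8%. The split between the classes was thus present genome-wide.

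The strongest of the 14 was at site 8, at 2551726 to 2552271, a site of WT larvae only. Its WT Crol peak had 81 reads at the summit, a fold enrichment of 4.98 and rank 1917, and its WT Cg peak had 57 reads, a fold enrichment of 4.23 and rank 3134, with summits 30 bp apart. Neither list of crol-KO larvae nor the S2 list had a peak there, and in all 3 of them the site fell in a gap of over 32 kb between neighbouring peaks. Such gaps were not rare, being the 187th (crol-KO Crol), 191st (crol-KO Cg) and 192nd (S2 Crol) longest of their lists on 3R. Site 44 (2771510 to 2772049) was next, with 67 reads and rank 3268 in WT Crol and with a weak WT Cg peak at rank 7835. Site 23 (2642002 to 2642457) had 82 reads and rank 4758 in WT Crol, but each of the other lists skipped a number beside it, so its absence there is undetermined.

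Several of the 14 were neighbours. A run of 5 consecutive WT Crol peaks, none with a crol-KO partner, spanned 25.7 kb from 2762190 to 2787857, at sites 41, 43, 44, 45 and 46. Their fold enrichment ran from 2.12 to 4.13 and their summit reads from 31 to 67, and only the peak at site 44 overlapped a WT Cg peak. A run of 4 spanned 2642002 to 2669488 (sites 23, 25, 26 and 27), with 37 to 82 reads, and it has 3 peaks without site 23. On all of 3R there were 24 runs of 3 or more such peaks, of which 11 had at least 4 and 7 had at least 5, and the longest had 7. The remaining peaks of the 14 were single ones at sites 8, 10, 16, 35 and 48.

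The run of 5 lay toward the Antp end. In the 35 kb stretch from 280 to 315 kb there were 7 WT Crol peaks, of which 6 had no crol-KO partner, and 2 crol-KO Crol, 3 WT Cg, 1 crol-KO Cg and 0 S2 Crol peaks. This was the only 35 kb stretch of the window with more than 3 WT Crol peaks lacking a partner. The 175 kb toward the lab end held 12 of the 19 sites in all 5 lists and 4 of the 14 unpartnered WT Crol peaks, and the 175 kb toward the Antp end held 7 and 10. In crol-KO larvae the stretch between site 42 and site 47 had no Crol peak over 28.4 kb, and that between site 40 and site 47 had no Cg peak over 35.6 kb. These were the 229th longest of 2269 crol-KO Crol gaps and the 168th longest of 2162 crol-KO Cg gaps on 3R.

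Peaks that appeared only in crol-KO were weak, and most such peaks on all arms were weak too. Crol peaks of crol-KO larvae that lacked a WT Crol partner numbered 5 (13.5%, compared with 17.7% on all arms) and lay at sites 12, 24, 30, 36 and 42. All 5 were in the weaker 50% of the list, as were 1597 of the 1752 such peaks on all arms. At 4 of the 5 sites a WT Cg peak was present, and at site 24 WT Cg was undetermined. The strongest was at site 36 (2733738 to 2734219), rank 6070 in crol-KO Crol, where WT Cg ranked 1137, crol-KO Cg 1933 and S2 Crol 4444. Site 30 (2678710 to 2679190) ranked 6418 and site 12 (2587873 to 2588259) ranked 6811 in crol-KO Crol, and site 12 had WT Cg at rank 3518 and no crol-KO Cg. The WT Cg peaks without a crol-KO partner numbered 7 (17.9%, compared with 10.6% on all arms), the strongest being at sites 8, 12 and 42. The 2 crol-KO Cg peaks without a WT partner (5.88%, compared with 15.6% on all arms) were weak, at site 18 (rank 8560) and site 25 (rank 9008). The absence of WT Cg at site 25 is undetermined.

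At sites with Crol peaks in both genotypes the ranks moved in both directions. Of 31 such sites, 19 ranked higher in WT and 12 in crol-KO, with a median shift of 3.45 percentage points in favour of WT. Site 39 moved most, from 7.64% in WT to 56.7% in crol-KO, or from 29.9 to 13.9 summit reads per M reads, and its Cg peak moved from 59.2% to 93.7%. Its neighbour site 40 moved from 13.0% to 51.2% for Crol and from 50.2% to 61.0% for Cg. Both adjoin the stretch from 280 to 315 kb on its lab side. In the opposite direction, site 4 moved from 83.5% in WT to 46.2% in crol-KO and site 1 from 87.2% to 56.1%, both at the lab end. Site 17 and site 28 kept their Crol rank within 0.1 percentage points.

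**Figure D5:**
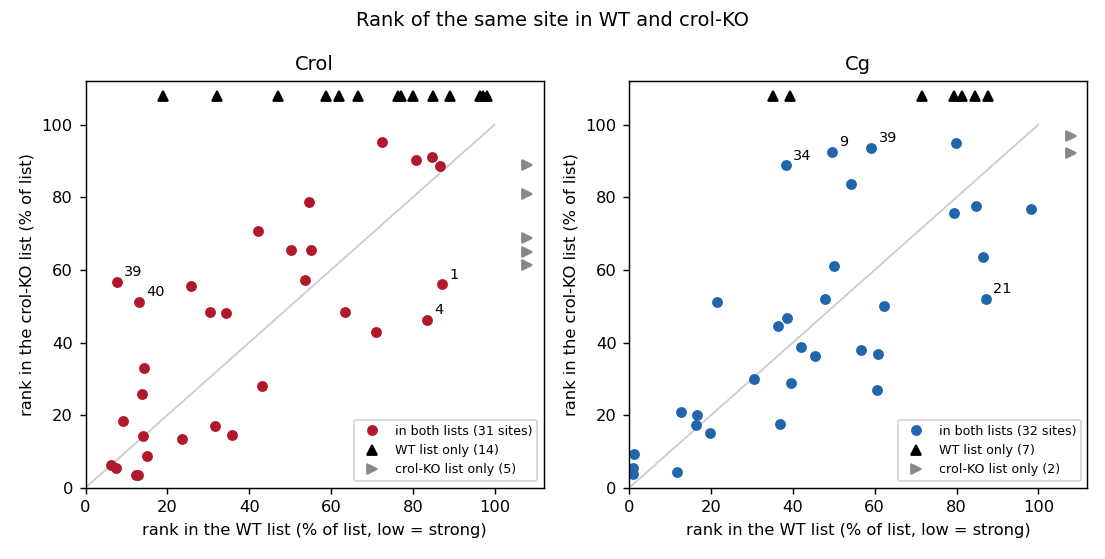
Rank in crol-KO against rank in WT, in percent of the list, for sites with a peak in both lists (circles), with Crol on the left and Cg on the right; the grey line marks equal ranks, triangles on the margins are sites of 1 genotype (absences beside a skipped number included) and numbers name the 4 largest shifts. Sites 39 and 40 lie far above the line for Crol, and the 14 WT sites on the upper margin lie mostly at the weak end.

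Cg ranks were balanced between genotypes, with 16 of 32 sites higher in WT and 16 in crol-KO. The largest shift was at site 34 (2729157 to 2729633), from 38.3% in WT to 88.8% in crol-KO. Site 21 (2637906 to 2638823) moved from 87.1% to 52.1%. Summit positions were close between genotypes. Overlapping peaks had summits a median of 35 bp apart for Crol and 22 bp for Cg between WT and crol-KO, compared with 38 bp and 35 bp on the rest of 3R.

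Nearly every S2 Crol peak of the complex was also a larval one. Of 21 S2 peaks, 20 overlapped a WT Crol peak (95.2%, 76.2 to 99.9), compared with 58.2% on all arms, 58.1% on the rest of 3R and 78.3% in the bithorax complex. It was the highest share among the 75 windows of 3R with at least 10 S2 peaks, the others of which reached 88.9%. The exception was site 36, which had Crol in crol-KO larvae and Cg in both genotypes. The S2 peak behind the skipped number was not counted in this share. By strength, 16 of the 21 peaks were in the stronger 50% of the S2 list, and 15 of these 16 had a partner (93.8%, 69.8 to 99.8), compared with 80.0% of such peaks on the rest of 3R. The 5 in the weaker 50% all had one, compared with 38.8% on the rest of 3R.

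In the reverse direction the share was lower than on all arms, within an interval that holds the value of all arms. Of the 46 WT Crol peaks, 21 overlapped an S2 peak (45.7%, 30.9 to 61.0), compared with 58.4% on all arms and 48.6% in the bithorax complex. Among 75 windows it was the 12th lowest share, and it was 53.8% when peaks beside a skipped S2 number were left out. The S2 list had 0.457 peaks per WT Crol peak, the 4th lowest ratio among these windows. Of the 10 sites with all 4 larval lists and no S2 peak, 7 were free of skipped numbers, namely sites 13, 31, 34, 47, 49, 50 and 51, and 4 of these lay in the longest S2 gap. That gap ran from 2756647 to 2826193, over 69.5 kb at the Antp end, held 11 larval sites and was the 63rd longest of 2153 gaps on 3R. It contained strong larval sites. Site 49 (2798916 to 2799478) ranked 15.1% in WT Crol and 8.77% in crol-KO Crol, and site 47 (2792209 to 2792828) ranked 19.6% in WT Cg and 15.0% in crol-KO Cg.

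Where S2 cells and WT larvae shared a site, the order of strengths differed. Of 20 such sites, 10 ranked higher in S2 cells and 10 in WT. Site 4 moved most toward S2 cells, and site 52 moved most toward the larvae, from 9.23% of the WT Crol list to 43.0% of the S2 list. Site 52 was the only S2 site of the window beyond site 40. The summits lay a median of 24 bp apart, compared with 41 bp on the rest of 3R.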

How the data were processed

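The series has 34 samples, of which 10 entered as 5 pooled peak lists and 24 were not analysed here. Per the methods, the authors trimmed reads (Trim Galore 0.6.5), aligned them to dm3 (Bowtie2 2.3.5), removed duplicates (SAMtools 1.13), pooled 2 replicates and called narrow peaks (MACS2 2.2.5, q-value 0.05, reads extended to 300 bp). Each deposited list holds the position, the summit offset, a score that follows the −log10 q-value, the fold enrichment and the −log10 p-value and −log10 q-value of a peak, all as the authors' peak caller gave them.

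Members were peaks with a summit in the window on 3R, and peaks overlapping by at least 1 bp counted as shared or as 1 site. Windows of 350 kb were tiled from the window's edge. Reads at summits were solved from fold enrichment and p-value, and came out whole within 0.02 of the −log10 p-value for all members. The lowest background, over 120 Mb, gave the depth. Sites named are the 5 strongest per list, those in all 5 lists, the 3 strongest without a partner in the other genotype or, for S2, in WT Crol, and runs of 3 or more WT Crol peaks without a crol-KO partner; others were named after their values were seen. The members and rules were chosen with earlier results of these data known. Code was tested on simulated data. Python 3.11.15, numpy 2.4.6, pandas 2.3.3, scipy 1.17.1 and matplotlib 3.10.9 were used. Alternatives were other overlap rules, a stricter q-value of 0.001, other windows and, added after seeing the data, leaving out peaks beside a skipped number.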

Additional observations from a re-analysis of the deposited data

How the results depend on the processing

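Of 91 alternative values for 28 results, 89 stayed within the set limits and 2 moved. Those limits allowed some change. Merging peaks within 1000 bp gave 45 sites in place of 52. Moving the windows put the crol-KO Crol count 12th in place of 18th. With the windows of 3R moved along by 175 kb, the complex stood 2nd of 78 windows by its WT Crol peaks (5th of 79 otherwise) and 5th by its WT Cg peaks (8th otherwise). The share of WT Crol peaks found in crol-KO lay between 67.4% and 78.3% over all alternatives, the highest with a partner counted within 1000 bp, and that of S2 peaks found in WT Crol between 85.7% and 95.2%. Leaving out peaks beside a skipped number, chosen after seeing the data, gave 71.1% for the former, and 53.8% in place of 45.7% for WT Crol peaks found in S2 cells. No paired analysis was possible because the authors pooled the replicates of each group before calling peaks, and for the same reason no replicate could be left out. Absence from a list means that no peak passed the threshold at that depth, not that the protein was absent.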
